A study of Caenorhabditis elegans with 36 samples.

Results

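The data concern 9 heat-inducible chaperone genes of *Caenorhabditis elegans*, chosen by gene symbol from a table of 18949 genes. They are 6 genes of the small heat shock protein family (*hsp-16.1*, *hsp-16.2*, *hsp-16.11*, *hsp-16.41*, *hsp-16.48* and *hsp-16.49*) and 3 genes of the inducible cytosolic HSP70 family (*hsp-70*, *F44E5.4* and *F44E5.5*). Polyadenylated RNA was sequenced from the wild-type strain N2 at 6 ages, from day 1 through days 3, 5, 7 and 9 to day 11 of adult life, with 3 replicates in each of 12 groups and 36 libraries in all. Control worms ate *Escherichia coli* carrying an empty vector (ev). The other worms ate a mixture of 50% control bacteria and 50% bacteria that silence *cco-1*, a gene for a component of mitochondrial complex IV (cytochrome c oxidase). The genotype was the same in all groups, and each library held RNA of a pool of whole animals. The protocol labels describe every sample as L4 or young adult, reached in 2.5 days, and the ages used here are those in the sample titles.

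As background, small heat shock proteins bind unfolding proteins and keep them from clumping without using ATP. HSP70 proteins then refold their clients in cycles driven by ATP, with J-domain proteins and nucleotide exchange factors as helpers. The transcription factor HSF-1 switches both families on when misfolded proteins build up, and *hsp-16.2* and *hsp-70* are widely used as reporters of this response in worms. The response to heat is known to weaken in worms once egg laying begins.

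Values are read counts scaled to library size (CPM) as deposited, already normalized across libraries. The library sums lay between 916765 and 953972, and no value was 0. Read depth is not given, and the number of distinct lower values in a library shows how near the bottom of that library's scale a gene lay. A gene was tested where it reached 1 CPM in at least 3 libraries, which 15713 genes did. A gene was called changed at an adjusted *P* below 0.05 and an absolute log2 fold change (log2FC) above 0.5 by limma, and each log2FC is on the scale of log2(CPM + 1), which understates the change of low genes. All groups shared 1 estimate of the spread, although the median SD between replicates on that scale was wider under *cco-1* RNAi at days 5, 9 and 11 (0.105, 0.119 and 0.115) than in the ev groups (0.0732 to 0.0834). The target of the RNAi was lower in every comparison of the same day, with *cco-1* at 275 ± 8.73 CPM in ev worms and 185 ± 7.40 CPM under *cco-1* RNAi at day 1 (SD, n = 3), and at 148 ± 14.2 and 89.0 ± 1.81 CPM at day 11. The labels give neither a batch nor a sequencing date.

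Of the 9 genes, 8 lie in divergent pairs, in which neighbouring start sites are close together and transcription runs outward. On the WBcel235 assembly, *hsp-16.2* (WBGene00002016, V:1804334-1804957, minus strand) and *hsp-16.41* (WBGene00002018, V:1805178-1805875, plus strand) are 220 bases apart. A second cluster on chromosome V holds *hsp-16.1* (WBGene00002015, V:9087293-9087782, minus strand) with *hsp-16.48* (WBGene00002019, V:9088131-9088617, plus strand), 348 bases apart. Next to them lie *hsp-16.49* (WBGene00002020, V:9089280-9089766, minus strand) and *hsp-16.11* (WBGene00002017, V:9090077-9090604, plus strand), 310 bases apart. The order of the second pair mirrors that of the first, with 662 bases between *hsp-16.48* and *hsp-16.49*. In both *hsp-16.48* and *hsp-16.49* the exons measure 138 and 294 bases, and the annotation gives *hsp-16.49* the name hsp-16.48 and *hsp-16.11* the name hsp-16.1. *F44E5.4* (WBGene00009691, II:11757107-11759311, minus strand) and *F44E5.5* (WBGene00009692, II:11759662-11761861, plus strand) are 350 bases apart. The single gene *hsp-70* (WBGene00002026, I:9320325-9322519, minus strand) has 3 exons and lies inside an intron of *uggt-2*, which is transcribed from the other strand. No member overlapped an exon of another gene.

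**Figure D1:**
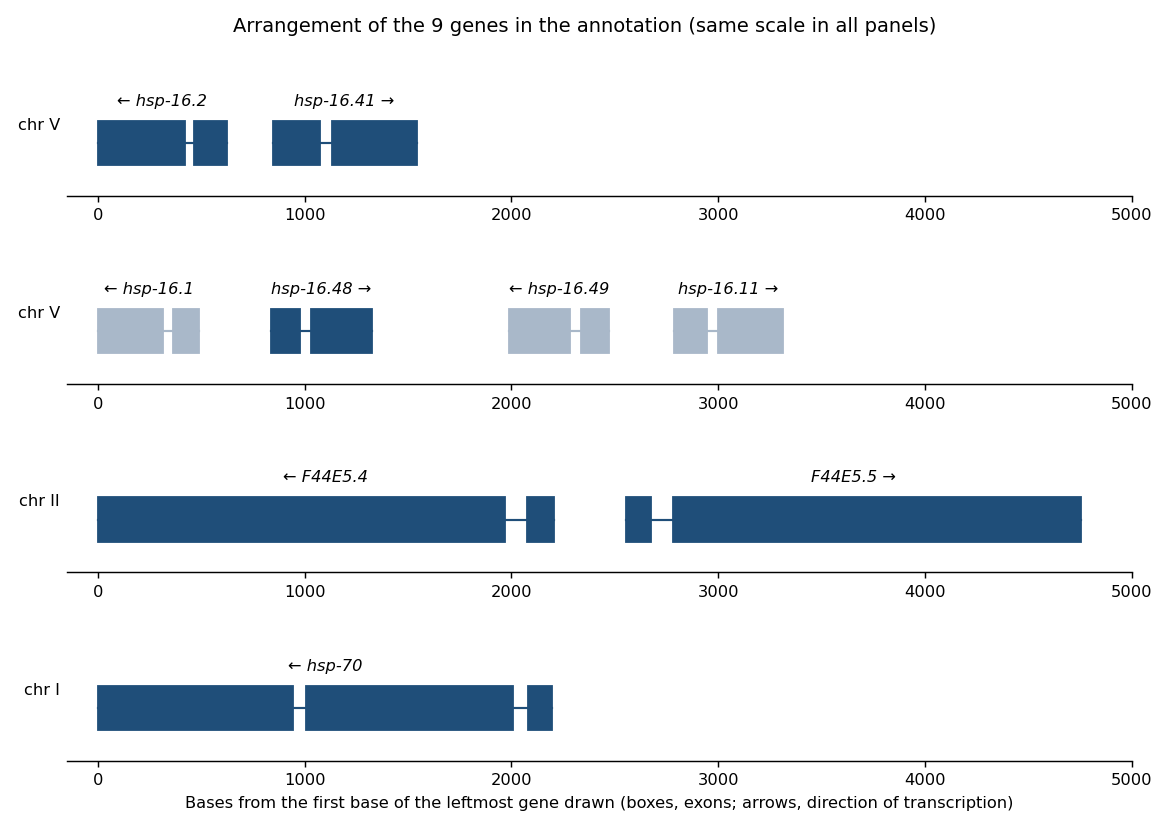
Exons (boxes), introns (lines) and direction of transcription (arrows) of the 9 genes, drawn to scale as bases from the first base of the leftmost gene in each row. The 6 genes that were tested are dark and the 3 that stayed under 1 CPM in every library are pale.

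Only uniquely mapped reads were counted, so that reads shared by near-identical copies were lost, and the levels of the duplicated chromosome V cluster and of the similar *F44E5.4* and *F44E5.5* are uncertain. In the duplicated cluster, *hsp-16.48* was read at 12.64 to 105 CPM, whereas the other 3 genes did not reach 1 CPM in any library. The highest values were 0.702 CPM for *hsp-16.1*, 0.647 CPM for *hsp-16.11* and 0.634 CPM for *hsp-16.49*. At most 15 distinct lower values lay beneath them in a library, and they sat at the library's lowest value in 3, 6 and 7 libraries, respectively. They were therefore not tested, and 6 of the 9 genes were. In ev worms *hsp-16.1* was read at 0.264, 0.0518 and 0.119 CPM at day 1 and at 0.671, 0.702 and 0.634 CPM at day 11, without overlap. In *cco-1* RNAi worms it was read at 0.191, 0.191 and 0.406 CPM at day 1 and at 0.164, 0.0310 and 0.227 CPM at day 11, which overlap. In a fit without the filter, *hsp-16.1* was called higher in ev worms at day 11 than at day 1 (log2FC 0.55, SE 0.0920, adjusted *P* = 1.1e-06, limma) and lower in *cco-1* RNAi than in ev worms at day 11 (log2FC −0.55, adjusted *P* = 2.7e-06). *hsp-16.11* and *hsp-16.49* had the same directions but stayed under the threshold on the fold change. Their log2FC were 0.43 and 0.42 for the ev rise (adjusted *P* = 4.2e-05 and 4.6e-05, limma) and −0.325 and −0.268 between diets at day 11 (adjusted *P* = 0.0023 and 0.0098). All these values lie within 15 distinct steps of the bottom of the scale.

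**Figure D2:**
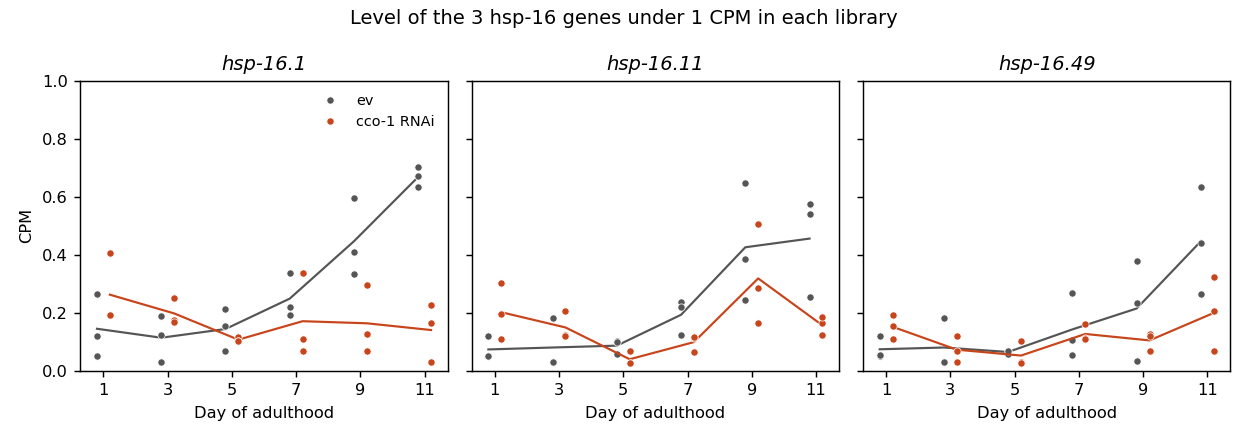
CPM of *hsp-16.1*, *hsp-16.11* and *hsp-16.49* (linear axis) against day of adulthood; points are libraries, lines join the means of 3 libraries, grey is ev and orange-red is *cco-1* RNAi. All points lie under 1 CPM, and *hsp-16.1* in ev worms of day 11 (0.634 to 0.702 CPM) stands above the *cco-1* RNAi worms of that day.

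The largest effect of *cco-1* RNAi on the small heat shock genes was at day 1, in *hsp-16.2* and its divergent partner *hsp-16.41*. *hsp-16.2* was read at 1.15, 0.85 and 1.08 CPM in ev worms and at 34.8, 30.3 and 30.0 CPM under *cco-1* RNAi, a ratio of means of 30.9. *hsp-16.41* was read at 1.41, 1.18 and 1.76 CPM and at 47.1, 42.3 and 42.3 CPM, a ratio of 30.2. Both were the lowest of the 12 groups in ev and the highest under *cco-1* RNAi. The log2FC were 4.01 (SE 0.114, adjusted *P* = 3.4e-27) and 4.20 (SE 0.110, adjusted *P* = 2.5e-28), the 8th and the 7th highest of all 15713 genes in this comparison. At day 1, 4 of the 6 tested genes were called higher and 0 lower, beside 4.63% of all tested genes called higher.

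The same comparison gave a smaller difference for *hsp-70*, which encodes a heat-inducible cytosolic HSP70. It was read at 3.51, 2.80 and 3.05 CPM in ev and at 15.3, 17.3 and 14.6 CPM under *cco-1* RNAi at day 1. The groups lay far apart (log2FC 2.02, SE 0.134, adjusted *P* = 5.1e-14, a ratio of 5.05), and the gene ranked 39th from the top. The surrounding gene *uggt-2*, related to a glycoprotein glucosyltransferase of the endoplasmic reticulum, was at 8.84 ± 0.603 CPM in ev and 10.5 ± 0.741 CPM under *cco-1* RNAi (log2FC 0.22, adjusted *P* = 0.082). Reads from its intron cannot be told from reads of *hsp-70*, since strand was not used in counting.

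The other tested members differed less at day 1. *hsp-16.48* was read at 24.6, 23.1 and 21.4 CPM in ev and at 34.2, 32.8 and 32.5 CPM under *cco-1* RNAi (log2FC 0.51, SE 0.113, adjusted *P* = 0.00075), so that the libraries did not overlap but the change was just past the threshold. It fell under the threshold without ev replicate 3 (0.46) or *cco-1* RNAi replicate 1 (0.49). *F44E5.4* was read at 0.22, 0.12 and 0.17 CPM and at 0.44, 0.49 and 0.44 CPM, a log2FC of 0.32 (95% interval 0.09 to 0.55, adjusted *P* = 0.028) that did not pass the threshold on the fold change. *F44E5.5* was read at 0.48, 0.47 and 0.31 CPM and at 0.57, 0.77 and 0.50 CPM, a log2FC of 0.18 (95% interval −0.07 to 0.44, adjusted *P* = 0.30). Both HSP70 genes of chromosome II were thus close to the bottom of the scale in both diets at this age, with 1 to 21 distinct lower values.

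As these are whole animals, more cells of a type and more RNA per cell cannot be told apart in any of the comparisons. Several lists of tissue and stage markers also differed at day 1. Of 6 larval moulting genes 4 were called higher, with a summed level of 128 to 136 CPM in ev and 181 to 197 CPM under *cco-1* RNAi, and no marker was below 1 CPM throughout. Of 5 intestine markers 1 was called higher and 1 lower, 4 had an unadjusted *P* below 0.05, and their summed level was 1375 to 1404 CPM in ev and 1816 to 1865 CPM under *cco-1* RNAi. No marker of body wall muscle, pharynx, neurons, germline, sperm or early embryo was called, the 8 embryo markers being under 1 CPM in every library of that day. Between 0 and 3 markers of each of these 6 lists had an unadjusted *P* below 0.05. Their summed levels were nonetheless apart between the diets for sperm (264 to 278 and 319 to 346 CPM), neurons (286 to 295 and 298 to 313 CPM), body wall muscle (6388 to 6511 and 6044 to 6316 CPM), germline (1738 to 1749 and 1638 to 1656 CPM) and early embryo (2.619 to 2.734 and 2.021 to 2.5997 CPM), and overlapped for pharynx (455 to 486 and 460.4 to 504 CPM). Their part in the higher levels of *hsp-16.2*, *hsp-16.41* and *hsp-70* was not tested.

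At day 3 no member passed the test. Here 0 of the 6 tested genes were called by limma, beside 17.3% of all tested genes, with 3 of 6 at an unadjusted *P* below 0.05 and the same number at an adjusted *P* below 0.05 without a threshold on the fold change. *hsp-16.2* was read at 4.24, 4.15 and 3.16 CPM in ev and at 4.06, 3.71 and 3.41 CPM under *cco-1* RNAi, and *hsp-16.41* at 3.58, 3.81 and 4.60 CPM and at 2.65, 2.88 and 3.69 CPM. The libraries of both diets overlapped for both genes, and the 95% intervals of the log2FC were −0.27 to 0.20 for *hsp-16.2* and −0.53 to −0.07 for *hsp-16.41*. *hsp-70* was read at 3.79, 5.05 and 4.88 CPM and at 5.10, 4.28 and 5.15 CPM, a log2FC of 0.07 (95% interval −0.21 to 0.35). *hsp-16.48* was read at 13.1, 12.64 and 14.1 CPM and at 15.8, 14.8 and 18.5 CPM, the lowest mean level of this gene in each diet. *F44E5.4* was read at 0.49, 0.33 and 0.40 CPM and at 0.27, 0.31 and 0.30 CPM. The last of the 6, *F44E5.5*, stood at 1.46, 1.69 and 0.74 CPM and at 0.55, 0.71 and 0.82 CPM, with overlap, and a log2FC of −0.42 (adjusted *P* = 0.0050) that became −0.61 without ev replicate 3, past the threshold.

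**Figure D3:**
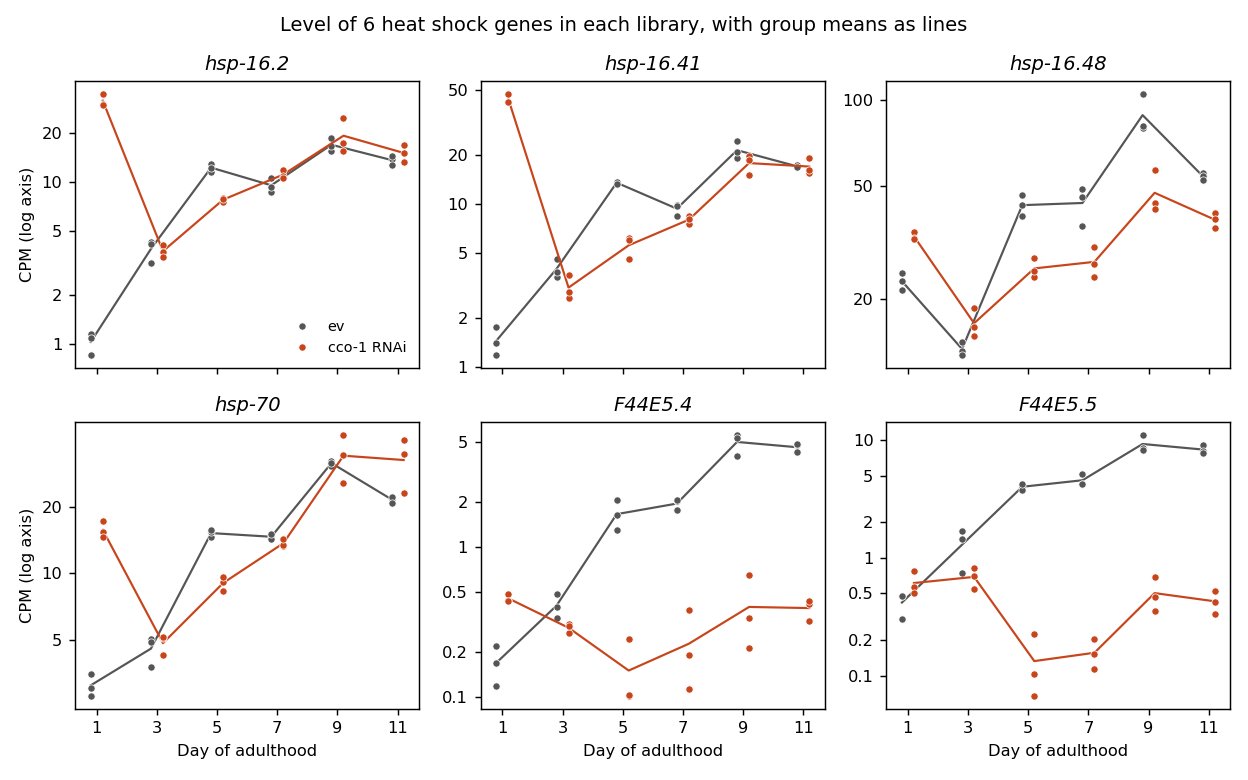
CPM (log axis) of the 6 tested genes against day of adulthood; points are libraries, lines join the means of 3 libraries, grey is ev and orange-red is *cco-1* RNAi. *hsp-16.2* and *hsp-16.41* stand about 30 times apart at day 1, overlap at day 3 and are lower under *cco-1* RNAi at day 5. *F44E5.4* and *F44E5.5* are far lower under *cco-1* RNAi from day 5, when ev worms stand at 1.66 and 4.01 CPM and *cco-1* RNAi worms at 0.151 and 0.133 CPM. At day 1 both are higher under *cco-1* RNAi without overlap, and at day 3 *F44E5.4* is lower without overlap.

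At day 5 the direction was the opposite, with 6 of 6 tested genes called lower in *cco-1* RNAi than in ev worms, beside 16.6% of all tested genes. *F44E5.4* and *F44E5.5* passed the filter only through ev libraries of day 3 or later, where they were high. This count, those of later days and the adjusted *P* of both genes thus describe them and do not support a direction. With a pseudocount of 5 CPM, *hsp-16.2* (−0.43) and *F44E5.4* (−0.37) were no longer called. *F44E5.5* was read at 4.0001, 3.78 and 4.25 CPM in ev and at 0.07, 0.23 and 0.10 CPM under *cco-1* RNAi, a log2FC of −2.15 (SE 0.125, adjusted *P* = 1.6e-17). *F44E5.4* was read at 1.30, 2.04 and 1.62 CPM and at 0.25, 0.10 and 0.10 CPM, a log2FC of −1.201 (SE 0.112, adjusted *P* = 6.3e-12). In *cco-1* RNAi worms *F44E5.5* had 1 to 5 distinct lower values in a library, against 95 to 107 in ev worms, so that the size of its difference rests on values at the bottom of the scale.

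Among the small heat shock genes of day 5, *hsp-16.41* differed most. It was read at 13.4, 13.7 and 13.3 CPM in ev and at 6.15, 5.98 and 4.60 CPM under *cco-1* RNAi (log2FC −1.15, SE 0.110, adjusted *P* = 1.4e-11), while *hsp-16.2* was read at 11.5, 12.96 and 12.21 CPM and at 7.55, 7.92 and 7.80 CPM (log2FC −0.59, adjusted *P* = 2.0e-05). *hsp-16.48* was read at 39.0, 46.5 and 42.7 CPM and at 27.9, 23.8 and 25.003 CPM (log2FC −0.72, adjusted *P* = 2.2e-06). *hsp-70* was read at 14.7, 15.3 and 15.7 CPM and at 9.19, 8.37 and 9.59 CPM (log2FC −0.69, adjusted *P* = 3.7e-05), and *uggt-2* was also lower (log2FC −0.55, adjusted *P* = 5.5e-06). No library of 1 diet overlapped the other in any of the 6 genes. The share of all tested genes without overlap was not computed, so that this is a description. At a log2FC threshold of 1, for which the share of all tested genes was not computed, 3 of the 6 remained called. These were *hsp-16.41*, *F44E5.4* and *F44E5.5*, the last pair with a direction set by the filter. Beside these, all 6 moulting markers were called lower (summed level 201 to 221 CPM in ev and 63.6 to 71.8 CPM under *cco-1* RNAi), 4 of the 6 tested early embryo markers were called lower, and all 5 body wall muscle markers were called higher (774 to 810 and 1738 to 2227 CPM). Their part in the day 5 differences was not tested.

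From day 7 the members fell into separate groups. *hsp-16.2* and *hsp-16.41* did not pass the test at days 7, 9 and 11, with log2FC of 0.20, 0.15 and 0.13 for *hsp-16.2* and −0.20, −0.25 and −0.01 for *hsp-16.41*. The *hsp-16.41* libraries of day 7 were nonetheless lower under *cco-1* RNAi without overlap (95% interval −0.43 to 0.03). Its interval at day 9 was −0.48 to −0.03 (adjusted *P* = 0.053, limma). At day 11 the intervals of *hsp-16.2* and *hsp-16.41* were −0.10 to 0.37 and −0.24 to 0.22. *hsp-16.48* was lower under *cco-1* RNAi at each of these days, at 36.2, 45.4 and 48.8 CPM in ev and 30.5, 23.8 and 26.6 CPM under *cco-1* RNAi at day 7, and at 79.6, 105 and 81.2 CPM and 56.6, 43.5 and 41.5 CPM at day 9. At day 11 it was at 55.5, 54.04 and 52.5 CPM and at 40.1, 35.5 and 38.3 CPM. The libraries did not overlap at any of the 3 days, and the log2FC were −0.67, −0.90 and −0.50 (adjusted *P* = 9.5e-06, 1.2e-07 and 0.00033), of which that of day 11 lies at the threshold and fell under it in 6 alternatives.

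*F44E5.4* and *F44E5.5* were far lower under *cco-1* RNAi at each of these days. *F44E5.5* was read at 4.22, 5.18 and 4.28 CPM in ev and at 0.11, 0.15 and 0.21 CPM under *cco-1* RNAi at day 7, at 8.51, 11.1 and 8.15 CPM and at 0.46, 0.69 and 0.35 CPM at day 9, and at 9.14, 8.06 and 7.72 CPM and at 0.34, 0.53 and 0.42 CPM at day 11. Its log2FC of −2.26, −2.77 and −2.70 (SE 0.125 each, adjusted *P* = 5.5e-18, 1.1e-19 and 8.7e-20) ranked 33rd, 5th and 4th from the bottom of 15713 genes. *F44E5.4* and *F44E5.5* passed the filter only through ev libraries, which set their direction, so that these *P*-values and ranks are a description. *F44E5.4* was read at 2.02, 2.07 and 1.76 CPM and at 0.11, 0.19 and 0.38 CPM at day 7, at 5.61, 5.36 and 4.07 CPM and at 0.34, 0.65 and 0.21 CPM at day 9, and at 4.76, 4.83 and 4.29 CPM and at 0.42, 0.44 and 0.32 CPM at day 11. Its log2FC were −1.27, −2.11 and −2.01 (SE 0.112 each). In CPM, the *cco-1* RNAi means were 0.0515 of the ev mean for *F44E5.5* and 0.0849 for *F44E5.4* at day 11.

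The third HSP70 gene did not follow this pair. *hsp-70* was read at 14.7, 14.2 and 15.006 CPM in ev and at 13.3, 13.5 and 14.3 CPM under *cco-1* RNAi at day 7, and at 30.7, 32.4 and 31.5 CPM and at 42.4, 25.5 and 34.2 CPM at day 9, with overlap at both days. At day 11 it was at 21.7, 22.2 and 20.9 CPM in ev and at 40.0, 23.2 and 34.5 CPM under *cco-1* RNAi. These last libraries did not overlap and the gene was called higher (log2FC 0.54, SE 0.134, adjusted *P* = 0.00086), but it fell under the threshold without *cco-1* RNAi replicate 1 (0.38) or replicate 3 (0.48). The 3 *cco-1* RNAi libraries of day 11 spread over an SD of 8.57 CPM, against 0.646 CPM in ev. In all, 3 of 6 tested genes were called lower at day 7 (13% of all tested genes), 3 of 6 at day 9 (8.69%) and 3 of 6 at day 11 (13.3%), and 1 of 6 was called higher at day 11 (15.1%).

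Tissue markers also differed at these ages. All 5 body wall muscle markers were called higher under *cco-1* RNAi at day 7 (summed level 653 to 692 CPM in ev and 1356 to 1690 CPM) and at day 9 (170.4 to 184 and 484 to 785 CPM). Moulting markers were called lower, 6 of 6 at day 7 (199.5 to 213 and 64.1 to 66.9 CPM) and 5 of 6 at day 9 (117 to 129 and 63.7 to 64.8 CPM). At day 11 all 5 body wall muscle markers were again called higher (summed level 111 to 136 CPM in ev and 467 to 910 CPM), as were 4 of 5 intestine markers (90.6 to 106 and 180 to 244 CPM) and 3 of 4 pharynx markers (8.81 to 13.2 and 24.9 to 35.7 CPM), and 4 of 6 moulting markers were called lower (85.6 to 92.8 and 50.96 to 56.99 CPM). Their part in the differences of *F44E5.4*, *F44E5.5*, *hsp-16.48* and *hsp-70* was not tested.

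**Figure D4:**
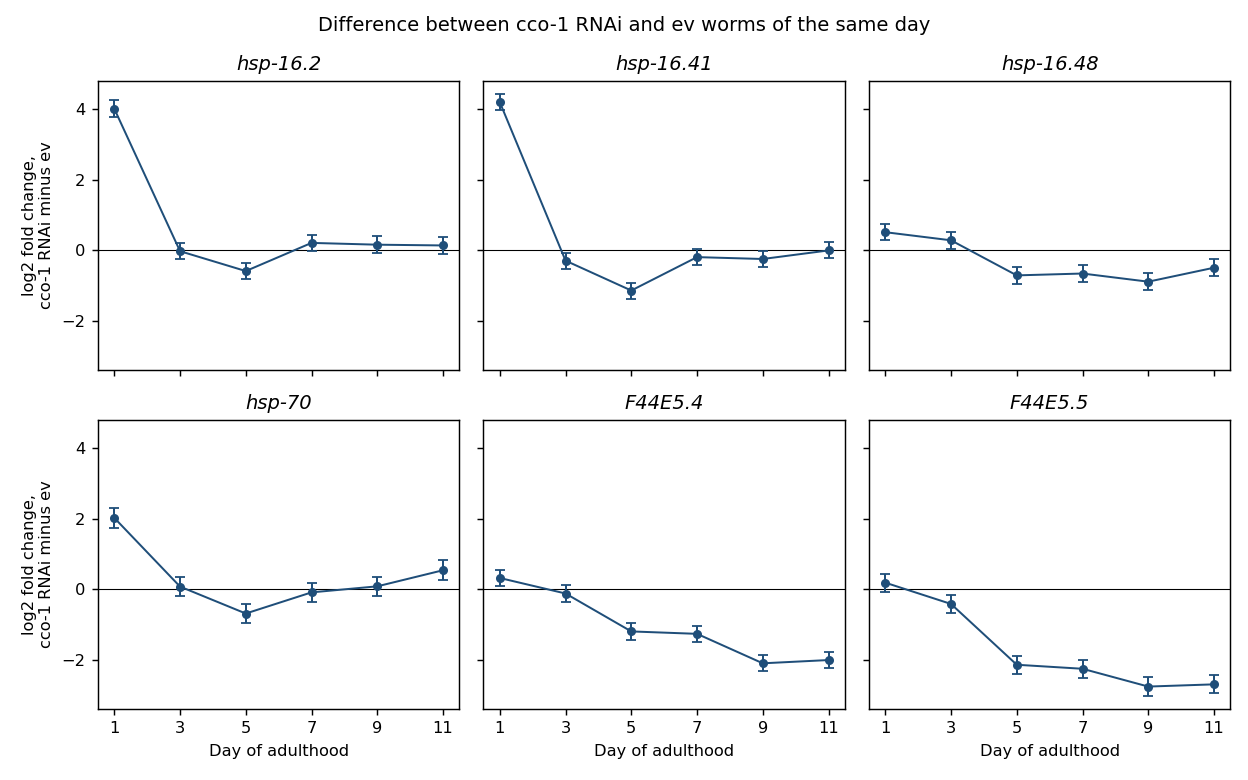
log2 fold change of *cco-1* RNAi against ev worms of the same day on the scale of log2(CPM + 1), with 95% intervals from the limma fit (3 libraries per group), for the 6 tested genes. *hsp-16.2* and *hsp-16.41* stand at 4.01 and 4.20 at day 1 and between −0.25 and 0.20 from day 7. *F44E5.5* stands at 0.18 at day 1 and at −2.77 at day 9.

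The next comparison asked how the same genes changed with age within each diet. In ev worms 6 of 6 tested genes were higher at day 11 than at day 1, beside 41.8% of all tested genes called higher, 27.4% called lower and a median log2FC over all tested genes of 0.31. The log2FC were 2.85 for *hsp-16.2* (a ratio of means of 13.3), 2.88 for *hsp-16.41* (11.7), 1.196 for *hsp-16.48* (2.34), 2.46 for *hsp-70* (6.93), 2.27 for *F44E5.4* (27.3) and 2.71 for *F44E5.5* (19.9), with SE between 0.110 and 0.134. At day 1 the ev libraries of *F44E5.4* had 1 to 3 distinct lower values, so that its ratio is loosely set. *hsp-16.41*, *hsp-16.2* and *F44E5.5* ranked 80th, 87th and 108th from the top. Since *F44E5.4* and *F44E5.5* reached the filter only in later ev libraries, their rise from day 1 in ev worms was set by the filter, and the counts that include them, here and in the steps between days, are a description.

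The ev rise came in steps. From day 1 to day 3, 3 of 6 genes were called higher (28.7% of all tested genes) and *hsp-16.48* was called lower (log2FC −0.75, adjusted *P* = 6.2e-07; 23.6%). From day 3 to day 5, 6 of 6 were called higher (12.4%), with log2FC of 1.45 for *hsp-16.2*, 1.54 for *hsp-16.41*, 1.61 for *hsp-16.48*, 1.55 for *hsp-70*, 0.91 for *F44E5.4* and 1.15 for *F44E5.5*. From day 5 to day 7, 0 of 6 were called by limma (10.7%), with 2 at an unadjusted *P* below 0.05, as *hsp-16.41* (log2FC −0.49, adjusted *P* = 0.00063) and *hsp-16.2* (−0.34, adjusted *P* = 0.023) were lower without overlap of the libraries. From day 7 to day 9, 6 of 6 were again called higher (17.1%), with log2FC between 0.77 and 1.11. From day 9 to day 11, *hsp-16.48* (−0.69, adjusted *P* = 2.9e-05) and *hsp-70* (−0.53, adjusted *P* = 0.0029) were called lower (6.88%), and each of the 6 genes had its highest ev mean at day 9. Neighbouring steps share a group, so that these values are not independent of each other.

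In *cco-1* RNAi worms the course began with a fall. From day 1 to day 3, 4 of 6 genes were called lower (19.6% of all tested genes), with log2FC of −2.79 for *hsp-16.2*, −3.47 for *hsp-16.41*, −0.98 for *hsp-16.48* and −1.52 for *hsp-70*. From day 3 to day 5 the same 4 genes were called higher (3.22%), with log2FC of 0.89, 0.69, 0.61 and 0.78, and *F44E5.5* was called lower (−0.58, adjusted *P* = 0.00035; 4.8%). From day 5 to day 7 *hsp-70* alone of the 6 was called, as higher (0.55, adjusted *P* = 0.0052; 1.16%). From day 7 to day 9 *hsp-16.2*, *hsp-16.41*, *hsp-16.48* and *hsp-70* were called higher once more (13.3%), with log2FC of 0.72, 1.05, 0.78 and 1.23. *F44E5.4* differed by 0.18 (adjusted *P* = 0.16) and *F44E5.5* by 0.37 (adjusted *P* = 0.010) in that step, both under the threshold, and from day 9 to day 11, 0 of 6 were called by limma, with 2 at an unadjusted *P* below 0.05, beside 0.185% of all tested genes.

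At day 11 the *cco-1* RNAi worms held less *hsp-16.2* (log2FC −1.03, SE 0.114, adjusted *P* = 1.6e-10) and *hsp-16.41* (−1.33, SE 0.110, adjusted *P* = 7.2e-14) than at day 1, and more *hsp-70* (0.97, SE 0.134, adjusted *P* = 7.2e-08). These are 2 genes called lower (23.7% of all tested genes) and 1 called higher (34.1%), with a median over all tested genes of 0.18. The *hsp-70* libraries of day 11 had an SD of 0.394 on the log2 scale. Over the alternatives its log2FC ranged from 0.81 to 1.19, with an adjusted *P* of at most 0.0022 (limma). *F44E5.4* (−0.06, 95% interval −0.29 to 0.17), *F44E5.5* (−0.17, −0.43 to 0.08) and *hsp-16.48* (0.19, −0.05 to 0.42) did not pass the test. Over the 6 ages *F44E5.5* ranged from a mean of 0.133 CPM at day 5 to 0.690 CPM at day 3 in these worms, and from 0.418 to 9.26 CPM in ev worms.

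The test of the difference between the diets in the change from day 1 to day 11 called 6 of 6 tested genes lower in *cco-1* RNAi than in ev worms, beside 18.1% of all tested genes called lower and a median of −0.10. The differences were −3.88 for *hsp-16.2*, −4.21 for *hsp-16.41*, −1.01 for *hsp-16.48*, −1.49 for *hsp-70*, −2.33 for *F44E5.4* and −2.89 for *F44E5.5* on the log2 scale, with SE from 0.156 to 0.190. The filter, which *F44E5.4* and *F44E5.5* passed only through ev libraries after day 1, set their direction in this test too. *hsp-16.41* was 2nd and *hsp-16.2* 4th from the bottom of all genes. For the changes from day 1 to days 3, 5, 7 and 9 the same test called 4, 6, 6 and 6 genes lower, beside 7.69%, 17% and 14.6% of all tested genes called lower for the first 3 days and 25.5% called in either direction for day 9. This test uses the day 1 and day 11 libraries of the comparisons above. For *hsp-16.2* and *hsp-16.41* the diets differed at day 1 and not by the test at day 11, whereas for *F44E5.4* and *F44E5.5* they differed at day 11 and not by the test at day 1. The day 1 libraries of both of these genes did not overlap, however, and *F44E5.4* was called there with a pseudocount of 0.1 CPM (log2FC 1.06).

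**Figure D5:**
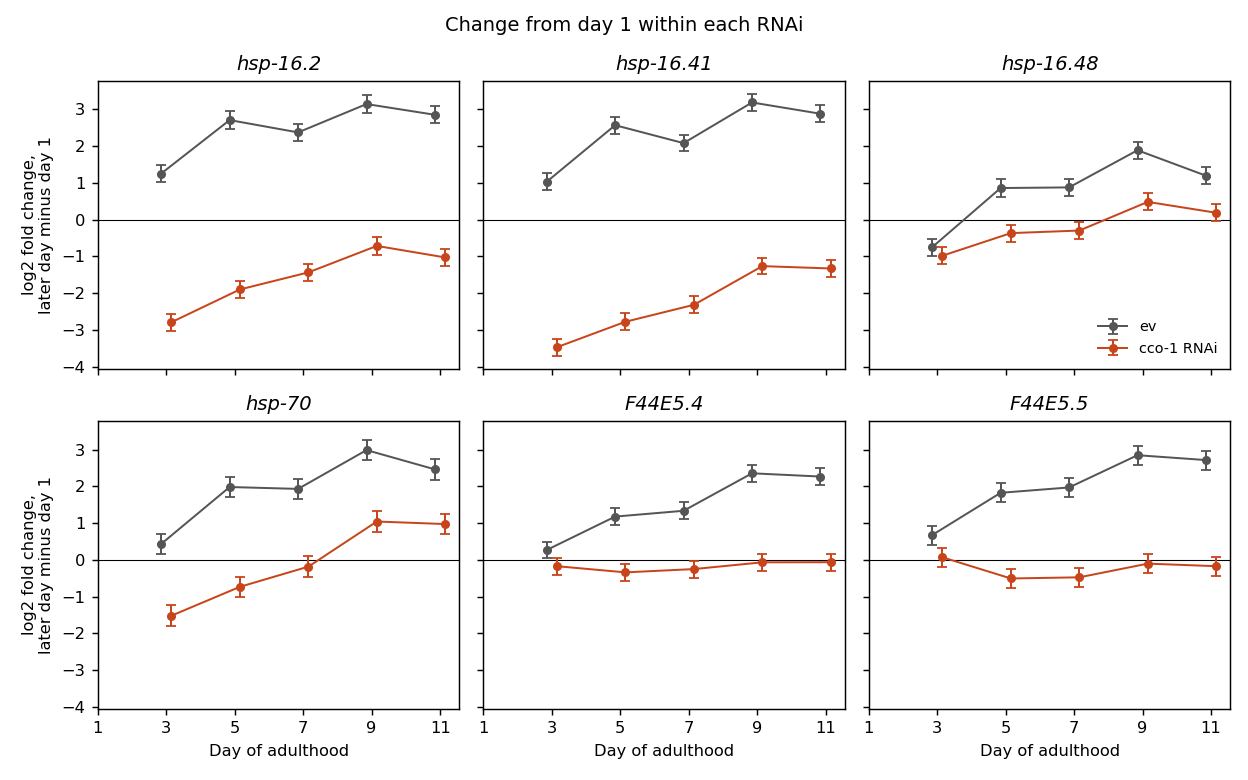
log2 fold change of each later day against day 1 within ev (grey) and *cco-1* RNAi (orange-red) worms on the scale of log2(CPM + 1), with 95% intervals from the limma fit (3 libraries per group). All 6 genes end above 0 in ev worms (1.196 to 2.88 at day 11), and under *cco-1* RNAi *hsp-70* ends at 0.97 while *hsp-16.41* ends at −1.33.

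Ordered by level over the 12 groups, *hsp-70* was highest under *cco-1* RNAi at day 9 (34.1 ± 8.44 CPM) and day 11 (32.6 ± 8.57 CPM) and in ev worms of day 9 (31.5 ± 0.814 CPM), 3 neighbours whose libraries overlapped. It was lowest in ev worms of day 1 (3.12 ± 0.362 CPM), apart from the next group. *F44E5.5* was highest in ev worms of days 9 and 11 (9.26 ± 1.62 and 8.31 ± 0.741 CPM), which overlapped, and then in those of days 7 and 5. *F44E5.4* had the same first 4 groups. Both were lowest under *cco-1* RNAi at day 5.

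Per length of the gene model, *hsp-16.48* had the highest level of the 9 genes in every group, with 53.4 CPM per kb in ev worms of day 1 and 125 CPM per kb in those of day 11. In *cco-1* RNAi worms of day 1, *hsp-16.41* (68.6 CPM per kb) and *hsp-16.2* (54.9 CPM per kb) came near its 76.8 CPM per kb, while *hsp-70* was at 7.65, *F44E5.5* at 0.293 and *F44E5.4* at 0.217 CPM per kb. In ev worms of day 11 the order was *hsp-16.48*, *hsp-16.41* (26.5), *hsp-16.2* (23.6), *hsp-70* (10.5), *F44E5.5* (3.97), *F44E5.4* (2.21) and *hsp-16.1* (1.53 CPM per kb). These levels assume the annotated lengths (432 bases for *hsp-16.48*, 2057 for *hsp-70*), and the models of *hsp-16.1*, *hsp-16.48* and *hsp-16.49* hold no untranslated regions. They also rest on uniquely mapped reads alone. The places of the duplicated cluster, *hsp-16.48* included, and of *F44E5.4* and *F44E5.5* in this order are therefore uncertain.

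In the pairs whose genes were both tested, the partners had similar courses over the 12 group means of log2(CPM + 1), which share the normalization and the ages. Pearson's *r* was 0.97 between *hsp-16.2* and *hsp-16.41*, with 0.99 over the ev groups and 0.98 over the *cco-1* RNAi groups. It was 0.98 between *F44E5.4* and *F44E5.5*, with 0.98 and 0.77. Across pairs, *r* was 0.87 between *hsp-16.2* and *hsp-70* and 0.84 between *hsp-16.48* and *hsp-70*. Between *hsp-70* and *F44E5.5* it was 0.36, with 0.99 over the 6 ev groups and −0.004 over the 6 *cco-1* RNAi groups. Between *hsp-70* and *F44E5.4* it was 0.49, with 0.97 and 0.57. The *cco-1* RNAi levels of *F44E5.4* and *F44E5.5* lie near the bottom of the scale, and the difference between the diets in these correlations was not tested.

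Within the pairs the balance was not constant. The ratio of *hsp-16.41* to *hsp-16.2* in CPM was 1.41 in ev and 1.38 under *cco-1* RNAi at day 1, and 0.719 and 0.722 under *cco-1* RNAi at days 5 and 7, against 1.102 and 0.983 in ev worms of the same days. The single libraries of day 5 lay between 1.06 and 1.16 in ev and between 0.590 and 0.814 under *cco-1* RNAi, and those of day 7 between 0.930 and 1.05 and between 0.687 and 0.764, without overlap. *F44E5.5* exceeded *F44E5.4* in each ev library, with ratios of group means from 1.80 to 3.18, and under *cco-1* RNAi the ratios were 1.34, 2.38, 0.883, 0.689, 1.26 and 1.09 from day 1 to day 11, of which that of day 3 lies inside the ev range. The single ev libraries lay between 1.52 and 5.03, and *cco-1* RNAi libraries reached 1.58 at day 1, 2.22 at day 5 and 1.65 at day 9. The *cco-1* RNAi ratios come from levels near the bottom of the scale. So do the ev ratios of days 1 and 3, where *F44E5.4* had 1 to 3 and 6 to 8 distinct lower values.

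The genes whose courses were most like the mean of *hsp-16.2*, *hsp-16.41* and *hsp-16.48* over the 12 groups, among 9724 genes with a group mean of at least 10 CPM, were *C37H5.5* (*r* = 0.92), *dhs-9* (0.88), *F53A9.6* (0.87), *T28F3.5* (0.81) and *acs-20* (0.80). *C37H5.5* went from 67.1 CPM in ev worms of day 1 to 116 CPM at day 11 and stood at 103 CPM under *cco-1* RNAi at day 1. Those most like the mean of the 3 HSP70 genes were *C01F1.1* (0.96), *rrbs-1* (0.96), *F25B4.5* (0.96), *T05A12.3* (0.95) and *kin-3* (0.95), the last encoding a subunit of casein kinase II. This mean joins genes whose courses differed under *cco-1* RNAi. Among genes with a group mean of at least 10 CPM, *C01F1.1* was also most like *F44E5.4* alone (0.96), whereas *gei-8* (0.93) was most like *hsp-70* alone. *F44E5.5*, which lies under that level, was more like *F44E5.4* (0.98). *C01F1.1* went from 91.7 to 140 CPM in ev worms and from 93.2 to 105 CPM under *cco-1* RNAi. The 12 groups share the normalization and the 6 ages, and the correlations are a description with no test.

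Other genes of the response were described from lists, and a list's count is read against the share of all genes called. Of 12 other small heat shock protein genes, 2 were called higher at day 1 under *cco-1* RNAi (9.09% of all tested genes were called in either direction), with a median log2FC of 0.04 against −0.01 over all tested genes. They were *hsp-17*, a small heat shock gene, from 43.3 ± 2.95 to 187 ± 5.52 CPM (log2FC 2.09, SE 0.129, adjusted *P* = 1.4e-13), and *ZK1128.7* (log2FC 0.52, adjusted *P* = 0.00012). At day 11, 4 of the 12 were called higher under *cco-1* RNAi (15.1% of all tested genes; median 0.32, all genes −0.08), among them *hsp-43* (log2FC 1.32) and *hsp-25* (1.23), which encode small heat shock proteins that do not need heat for their expression. In ev worms from day 1 to day 11, 4 of the 12 were called higher (41.8% of all tested genes) and 6 lower (27.4%; median −0.39, all genes 0.31), with *hsp-25* at −3.64 and *hsp-12.2* at −3.37. The small heat shock genes outside the *hsp-16* family thus did not share 1 direction with age.

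Of 15 genes of the constitutive HSP70 and HSP90 machinery with co-chaperones, 0 were called at day 1 by limma and 5 had an unadjusted *P* below 0.05 (median 0.06, all genes −0.01). In *cco-1* RNAi worms of day 11, 3 were called lower (13.3% of all tested genes) and 0 higher (median −0.26, all genes −0.08). *daf-21*, which encodes cytosolic HSP90, was at 8371 CPM in each ev library and at 3336 ± 312 CPM under *cco-1* RNAi at day 11 (log2FC −1.33, SE 0.0668, adjusted *P* = 8.5e-16). *hsp-1*, which encodes the constitutive cytosolic HSC70, was at 6750 and 4235 ± 1025 CPM (log2FC −0.70, adjusted *P* = 4.7e-06). Both genes have equal values in the 3 ev libraries, since quantile normalization gives the same value to the same rank. In ev worms from day 1 to day 11 they were called higher, with log2FC of 2.18 and 1.37, among 4 higher and 1 lower of the 15, beside 41.8% and 27.4% of all tested genes.

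The chaperonin CCT, a ring that folds actin and tubulin, had 0 of 8 subunits called at day 1 by limma, with 3 at an unadjusted *P* below 0.05, and 4 higher and 0 lower with age in ev worms, a share of higher calls near the 41.8% of all tested genes (median 0.55, all genes 0.31), with *cct-4* and *cct-5* at 0.93 each. Only *cct-5* was called lower under *cco-1* RNAi at day 11 (log2FC −0.60, adjusted *P* = 2.0e-12). Of 6 prefoldin subunits, which hand clients to CCT, 1 (*pfd-1*) was called in ev worms with age (0.53) and under *cco-1* RNAi at day 11 (−0.71). The transcript of *hsf-1* itself was at 81.9 ± 1.33 CPM in ev and 76.4 ± 0.351 CPM under *cco-1* RNAi at day 1 (log2FC −0.10, adjusted *P* = 0.13), and at 147 ± 6.09 and 114 ± 9.90 CPM at day 11 (log2FC −0.36, adjusted *P* = 5.6e-08, under the threshold on the fold change). Of 8 genes of HSF-1 and its regulators, 6 were called higher and 0 lower with age in ev worms (41.8% and 27.4% of all tested genes; median 0.63), led by *ddl-1* (1.63) and *ddl-2* (1.18), whose products bind HSF-1 and hold it back, and 0 were called by limma between diets at day 1 or day 11, with 3 and 5 at an unadjusted *P* below 0.05.

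Of 8 chaperones of mitochondria and the endoplasmic reticulum, 1 was called at day 1, the mitochondrial J-domain gene *dnj-10* (log2FC 0.73, SE 0.0512, adjusted *P* = 9.5e-15). The mitochondrial HSP70 gene *hsp-6* went from 407 ± 9.81 CPM in ev to 575 ± 6.45 CPM under *cco-1* RNAi at day 1, a log2FC of 0.50 (adjusted *P* = 2.7e-09) just under the threshold. Its mean was also higher under *cco-1* RNAi at each later day. It was at 314 ± 0.794 CPM in ev and 498 ± 30.6 CPM under *cco-1* RNAi at day 5, and at 356 ± 3.66 and 426 ± 32.4 CPM at day 11. The HSP70 genes of the endoplasmic reticulum, *hsp-3* and *hsp-4*, were called higher under *cco-1* RNAi at day 11 (log2FC 0.66 and 0.52). In ev worms with age *hsp-60*, the mitochondrial chaperonin (log2FC −2.75), and *hsp-3* (−1.19) were called lower, and 5 of 6 genes of ubiquitin and proteotoxic stress were called higher (41.8% of all tested genes; median 0.83), with *sqst-1*, a selective autophagy receptor, at 1.59 and *aip-1*, an arsenite-inducible proteasome adaptor, at 1.36. Of these 6, 0 were called by limma between diets at day 1 or day 11, with 2 and 5 at an unadjusted *P* below 0.05.

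Of 8 reporters of other stresses, 2 were called higher and 2 lower under *cco-1* RNAi at day 1 (9.09% of all tested genes in either direction; median −0.20). The osmotic stress reporter *gpdh-1* (log2FC −1.56) and the metallothionein gene *mtl-1* (−0.87) were lower. At day 11, 5 were called higher and 1 lower (15.1% and 13.3% of all tested genes; median 0.64), among them *mtl-2* (1.31) and the superoxide dismutase gene *sod-3* (1.09). In ev worms with age the glutathione S-transferase gene *gst-4* (log2FC −4.44) and *mtl-2* (−2.81) were lower and *mtl-1* (2.63) was higher, the first pair opposite to the *hsp-16* and HSP70 genes that were tested. Over the same ages the markers of body wall muscle (5 of 5), pharynx (4 of 4) and intestine (5 of 5) were called lower in ev worms, with medians of −5.59, −4.51 and −3.61. Their summed levels were 6388 to 6511 CPM for muscle, 455 to 486 CPM for pharynx and 1375 to 1404 CPM for intestine in ev worms of day 1, against the day 11 levels given above. Their part in the rise of the heat shock genes with age was not tested.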

How the data were processed

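Poly(A) RNA of 36 libraries was sequenced by the authors. Per the study's methods, reads were mapped with STAR to WBcel235, uniquely mapped reads were counted over exons with htseq-count without strand, and limma-voom was used for normalization. The submitters' notes list STAR 2.73a and edgeR 3.24.3. The values deposited by the authors were read as CPM. High-ranking values are equal in all libraries, as quantile normalization gives, which evens out the libraries and hides read depth. The deposited table also holds log2 fold changes and p-values of the authors' own comparisons, and another sheet their gene set results, none of which was used.

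Groups came from the sample titles. The study describes the 3 samples of a group as biological replicates. Log2(CPM + 1) was fitted with limma 3.58.1 in R 4.3.3 (trend and robust options, 12 group means, 24 residual degrees of freedom), for the 15713 of 18949 genes that reached 1 CPM in 3 or more libraries. P-values of 29 contrasts were adjusted by the Benjamini-Hochberg method within each contrast, and genes were called at an adjusted p below 0.05 and an absolute log2 fold change above 0.5. The fit was tested on simulated data. Intervals are 95% intervals. Figures were drawn with matplotlib 3.10.9. Gene models came from the WBcel235 annotation. The text names every member, the 5 genes most like each family, the gene most like *hsp-70*, and list genes by the size of their change. Members and lists were chosen with earlier results of these data known. Replicate numbers were not treated as pairs in this fit. After each gene's group mean was subtracted, same-numbered libraries of both diets correlated between −0.138 and 0.207, over 0.1 in 2 of 18 pairs. Differently numbered libraries were not compared, so that these values cannot decide whether the numbers pair the samples.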

Additional observations from a re-analysis of the deposited data

Results flagged for a closer look

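The change from day 1 to each later day was compared between *cco-1* RNAi and ev worms by an interaction term in limma, and these differences passed the test (adjusted *P* below 0.05 and over 0.5 in size). All are negative, and the 5 days share their day 1 libraries. *F44E5.4* and *F44E5.5* passed the filter only through ev libraries after day 1, which set the direction of their values. For the change to day 3, the difference (*cco-1* RNAi minus ev, log2 scale) was −4.04 for *hsp-16.2*, −4.50 for *hsp-16.41*, −1.95 for *hsp-70* and −0.60 for *F44E5.5*, beside 7.69% of all tested genes called lower. To day 5 it was −4.61 for *hsp-16.2*, −5.35 for *hsp-16.41*, −1.23 for *hsp-16.48*, −2.72 for *hsp-70*, −1.52 for *F44E5.4* and −2.33 for *F44E5.5*, beside 17% of all tested genes called lower. To day 7 the values were −3.81 for *hsp-16.2*, −4.40 for *hsp-16.41*, −1.17 for *hsp-16.48*, −2.11 for *hsp-70*, −1.59 for *F44E5.4* and −2.44 for *F44E5.5*, beside 14.6% of all tested genes called lower. To day 9 they were −3.86 for *hsp-16.2*, −4.45 for *hsp-16.41*, −1.41 for *hsp-16.48*, −1.94 for *hsp-70*, −2.42 for *F44E5.4* and −2.95 for *F44E5.5*, beside 25.5% of all tested genes called in either direction. To day 11 they were −3.88 for *hsp-16.2*, −4.21 for *hsp-16.41*, −1.01 for *hsp-16.48*, −1.49 for *hsp-70*, −2.33 for *F44E5.4* and −2.89 for *F44E5.5*, beside 18.1% of all tested genes called lower. *hsp-16.41* had the lowest value of all 15713 genes for the changes to days 3, 5 and 7. SE lay between 0.156 and 0.190. No explanation of these differences was tested.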

How the results depend on the processing

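The count of tested genes called between diets at day 3 went from 0 to 1 with a pseudocount of 0.1 CPM and to 3 without a threshold on the fold change. The count at day 5 went from 6 to 3 at a log2FC threshold of 1, and that at day 11 from 4 to 2 at this threshold or with a pseudocount of 5 CPM. The share of all tested genes called is not given for these alternatives, so that their counts are a description. Leaving out 1 library gave counts of 3 to 4 at days 1 and 11, 0 to 1 at day 3, 6 to 6 at day 5 and 3 to 3 at days 7 and 9. It gave 6 to 6 for ageing in ev worms, 3 to 3 in *cco-1* RNAi worms and 6 to 6 for the difference between them. Differences near 0 changed sign. *hsp-16.2* at day 3 (−0.03) became 0.0214 with library weights, 0.0286 and 0.0166 without ev replicates 1 and 2, and 0.0178 without *cco-1* RNAi replicate 3. *hsp-70* at day 3 (0.07) became −0.0338 without ev replicate 1. Without 1 library these day 3 values ranged from −0.1381 to 0.0286 and from −0.0338 to 0.1436. At day 9, without *cco-1* RNAi replicate 1, *hsp-16.2* became −0.0328 and *hsp-70* −0.0891, the ends of ranges up to 0.287 and 0.266. *hsp-16.41* at day 11 (−0.01) became 0.0067 without ev replicate 1, and 0.048 and 0.0242 without *cco-1* RNAi replicates 2 and 3, and −0.0994 without replicate 1. Within the *cco-1* RNAi groups the correlation of *F44E5.5* was −0.0271 with *hsp-16.48* and −0.0038 with *hsp-70*. The cause was not tested. Of 1944 values without 1 library, 1927 kept direction and call. A pseudocount of 5 CPM ended the calls of *hsp-16.48* (0.45 at day 1, −0.46 at day 11), *hsp-16.2* (−0.43 at day 5), *F44E5.4* (−0.37 and −0.41 at days 5 and 7) and *hsp-70* (0.47 at day 11). The pseudocount of 0.1 CPM made *F44E5.4* called at day 1 (1.06) and *F44E5.5* at day 3 (−0.76). The size of the *F44E5.5* difference at day 11 ranged from −4.005 to −1.29 over the alternatives. With a replicate block the counts were those of the fit without it (4, 0, 6, 3, 3 and 4 between diets, 6 and 3 with age, 6 for the difference), and it changed no call. Without a filter *hsp-16.1* joined the called genes (7 for ageing in ev worms), and a filter of 5 CPM removed *F44E5.4*. Read depth is unknown, so counting error could not be given.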
